A study of Danio rerio with 2 samples.

Results

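The genes described here are 4 genes of the pteridine and tetrahydrobiopterin route in zebrafish pigment cells: gch2, gchfr, pcbd1 and mycbp2. They were taken by their symbol in the array's platform annotation, with every probe set (a group of short probes reporting 1 transcript) that carries that symbol alone. This gave 5 of 15502 transcript probe sets, and 4 of 8793 named genes. The study compared melanophores, the black cells of the fin, with xanthophores, its yellow cells, on 2 Affymetrix arrays. Each array held total RNA from 1 cell preparation, and the labels state a collection of caudal and anal fins from 1000 wild-type adult zebrafish over 2 months old. The fish came from a pet shop, so no laboratory strain is named, and the animals were pooled. Both preparations share a digestion of the fins overnight with trypsin at 2.5 mg/ml, followed by collagenase. The design text gives centrifugation or a cell sorter as the means of separation and does not tie either to an array.

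The labels contradict each other. The array whose title reads melanophores has xanthophore as its source and cell type, and the array whose title reads xanthophores has melanophore there. The arrays are called melanophore-titled and xanthophore-titled, and each ratio is the melanophore-titled signal over the xanthophore-titled signal. With 1 array for each preparation no difference has a replicate check and no test between the preparations was possible.

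Pteridines are made from GTP. GTP cyclohydrolase opens the route, and its product is turned either into yellow pteridines such as sepiapterin, which colour xanthophores, or into tetrahydrobiopterin, the cofactor of the enzymes that hydroxylate phenylalanine, tyrosine and tryptophan. After each hydroxylation the cofactor is restored by a dehydratase and a reductase. In zebrafish, gch2 encodes the GTP cyclohydrolase of pigment cells and is a widely used marker of the xanthophore lineage, with expression also described in embryonic melanophore precursors. The route is only partly covered by named probe sets. Of the 4 genes, 3 encode an enzyme or a regulator of the route, while mycbp2 encodes a very large ubiquitin ligase and no enzyme of it. Zebrafish mutants of mycbp2, known as esrom, have pale yellow pigment, which links that gene to pteridine synthesis.

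Among the 4 genes, gch2 was brighter on the melanophore-titled array by 5.72-fold and mycbp2 by 2.38-fold, pcbd1 was close to equal, and gchfr was below the median signal of both arrays. Signals are MAS 5.0 intensities in arbitrary units. A gene was called measured if its signal reached the median of the transcript probe sets on at least 1 array (47.2 on the melanophore-titled array against 43.5 on the xanthophore-titled array), and lower signals were raised to that median before a ratio was taken. By this rule 3 of the 4 genes were measured. Of these 3, 2 stood 2-fold or more higher on the melanophore-titled array and 0 stood 2-fold or more lower. Among all 5504 measured genes the corresponding shares were 15.5% higher and 4.09% lower. These genes were chosen with earlier results of the data known, so the count is a description.

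**Figure D1:**
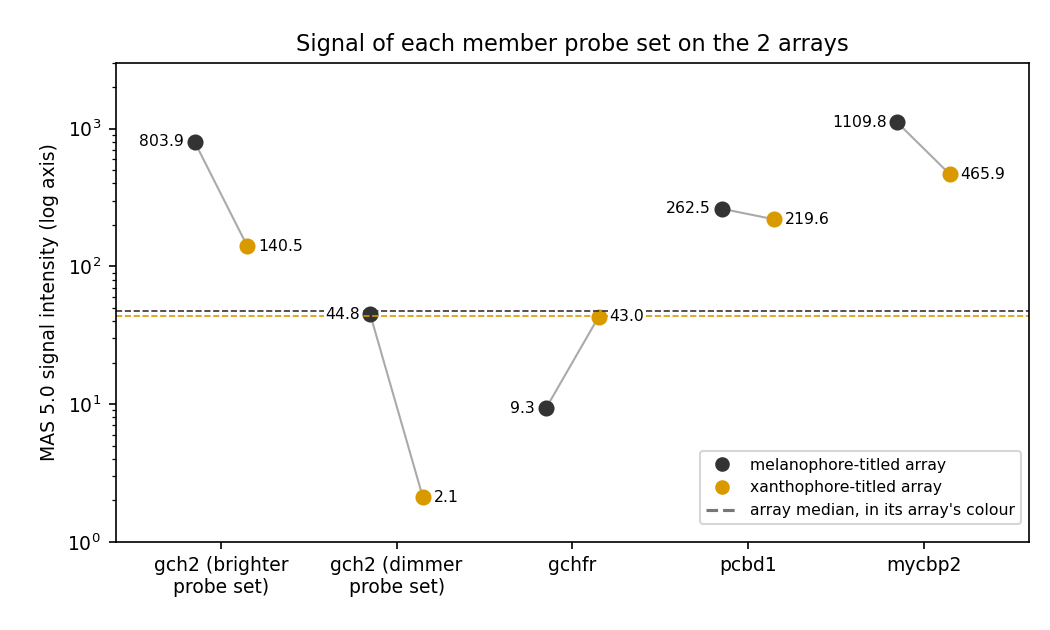
MAS 5.0 signal intensity (log axis) of the 5 probe sets on the melanophore-titled array (dark points) and the xanthophore-titled array (yellow points); dashed lines mark each array's median. The brighter gch2 probe set and mycbp2 lie well above the medians with the dark point higher, pcbd1 is nearly level at 262.5 and 219.6, and the dimmer gch2 probe set and gchfr lie under the medians.

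GTP cyclohydrolase, the entry enzyme, had the largest ratio of the 3 measured genes. The brighter of the 2 gch2 probe sets (Dr.14668.1.S1_at; NCBI gene 64263) had a signal of 803.9 on the melanophore-titled array, against 140.5 on the xanthophore-titled array. The first is 17.0 times and the second 3.23 times the median of its array, so both were measured and the ratio of 5.72 is not a bound. On the log2 scale the ratio was 2.52. A ratio this large or larger was seen in 57 of the 5504 measured genes (1.04%), gch2 included. Probe sets of the same gene, where the brighter signal reached the 75th percentile of its array, differed in log2 ratio by a pooled SD of 0.38 (205 genes). The gch2 ratio exceeds this spread between probe sets read on the same 2 arrays. The dimmer gch2 probe set was too faint to enter the spread. Over all measured probe sets the pooled SD was 0.46 (598 genes), which the gch2 ratio also exceeds. Such spreads leave out differences in labelling or hybridisation between the arrays and any difference between preparations of the same cells.

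The place of gch2 within each array needs no scaling between arrays. Its brighter probe set lay at the 89.0th percentile of transcript probe sets on the melanophore-titled array, against the 71.9th on the xanthophore-titled array, a gap of 17.1 percentile points. Such places follow the probes as well as the transcript and are not levels that can be set against other genes.

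The other gch2 probe set (Dr.14668.2.S1_at) was dim. It read 44.8 on the melanophore-titled array, against 2.1 on the xanthophore-titled array, the 49.0th and the 3.99th percentile. Both signals were under the medians, so no fold is given. The higher reading was again on the melanophore-titled array. Taking gch2 as the median of its 2 probe sets gave 2.49-fold, a value in which the dim probe set counts at the ratio of the 2 medians.

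The regulator gchfr was not measured. In mammals its protein binds GTP cyclohydrolase and passes on feedback inhibition by tetrahydrobiopterin. Its single probe set (Dr.12454.1.S1_at; NCBI gene 393735) read 9.3 on the melanophore-titled array, against 43.0 on the xanthophore-titled array, the 19.6th and the 49.7th percentile. The reading on the xanthophore-titled array fell just short of that array's median of 43.5. The raw readings thus ran opposite to those of gch2, but both were under the medians and no fold is given. Whether gchfr differs between the preparations cannot be read at these signals.

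The recycling enzyme pcbd1 was nearly equal on the 2 arrays. It encodes pterin-4a-carbinolamine dehydratase, which removes water from the spent cofactor, and in mammals the same protein also binds the transcription factor HNF1. Its single probe set (Dr.14639.1.S1_at; NCBI gene 393787) read 262.5 on the melanophore-titled array, against 219.6 on the xanthophore-titled array, a ratio of 1.20 or 0.26 on the log2 scale. This is smaller than the SD of 0.38 given above. In place within the array pcbd1 lay at the 76.5th percentile on the melanophore-titled array, against the 78.5th on the xanthophore-titled array, so by rank the order of the arrays was the other way. Of the measured genes, 56.3% had a ratio as high as that of pcbd1 or higher. The sign of its log2 ratio followed the scaling, from -0.30 with bright probe sets set equal to 0.76 with ribosomal protein genes set equal.

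The ubiquitin ligase gene mycbp2 had the second largest ratio. Its single probe set (Dr.17163.1.S1_at; NCBI gene 368439) read 1109.8 on the melanophore-titled array, against 465.9 on the xanthophore-titled array, a ratio of 2.38 or 1.25 on the log2 scale. Both signals were high in their arrays, at percentiles of 91.7 and 87.2, a gap of 4.46 points. A ratio this large or larger was seen in 487 measured genes (8.85%). RefSeq lists 50 transcripts of mycbp2 in assembly GRCz12tu, against 1 of gch2, and which of them the single probe set reports is not given in the sources used here. The 2-fold call rested on the scaling: mycbp2 stood at 1.83-fold after scaling to the spike-in controls and at 1.62-fold with bright probe sets set equal.

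**Figure D2:**
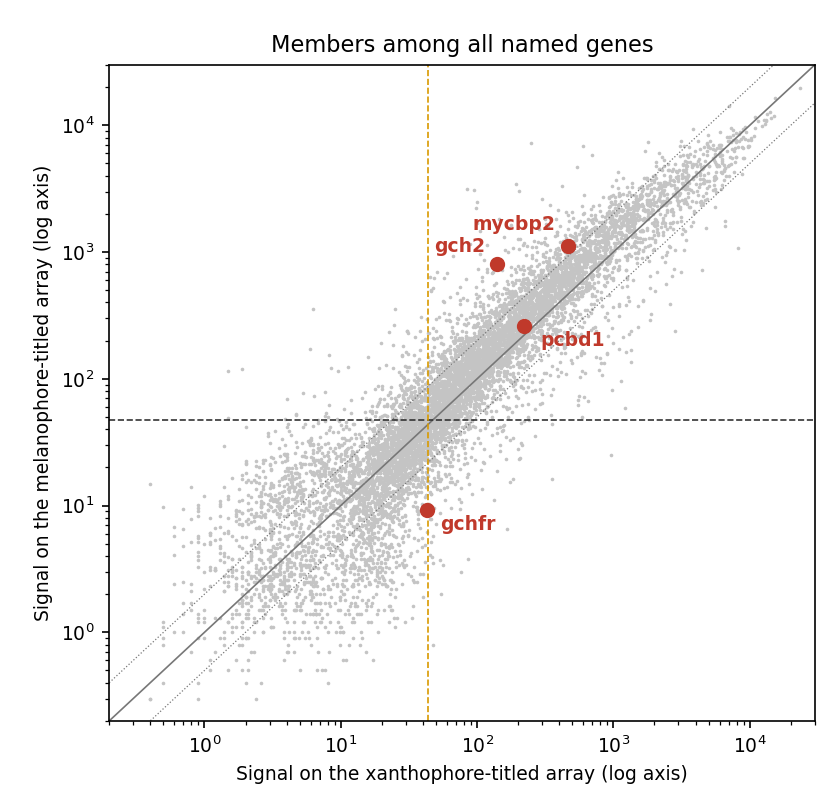
Signal on the melanophore-titled array (vertical, log axis) against the xanthophore-titled array (horizontal, log axis) for the 8793 named genes in grey, each at its brighter probe set, with the 4 genes in red; the solid line marks equal signals, dotted lines 2-fold, and dashed lines the array medians. The gch2 point (803.9 and 140.5) lies at the upper edge of the cloud, mycbp2 above the 2-fold line, pcbd1 near the line of equal signals, and gchfr in the dim corner under both medians.

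Most measured genes read higher on the melanophore-titled array, which bears on every ratio. Over the 18 hybridisation spike-in control probe sets the median log2 ratio was 0.38, with extremes of 0.18 and 0.97, and over the 5504 measured genes it was 0.36. Set against the median of the measured genes, the log2 ratio was 2.16 for gch2, 0.90 for mycbp2 and -0.10 for pcbd1, or 4.47-fold higher, 1.86-fold higher and 1.07-fold lower. Cytosolic ribosomal protein genes had a median of -0.50 (70 genes), so setting them equal moves every ratio upwards. Of the 10 alternatives run, 6 changed the gch2 value, namely the 5 scalings and the median over its probe sets. The value then lay between 2.49-fold and 8.09-fold, 2-fold or more higher in all 6. Apart from quantile normalization, the scalings move every log2 ratio by 1 constant, at most 0.56 downwards. In them gch2 could not fall under 2-fold. For mycbp2 and pcbd1 the 5 scalings alone changed the value, since both have 1 probe set with signals above every floor. In these 5, mycbp2 was 2-fold or more higher in 1, that on ribosomal protein genes, and pcbd1 in 0.

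**Figure D3:**
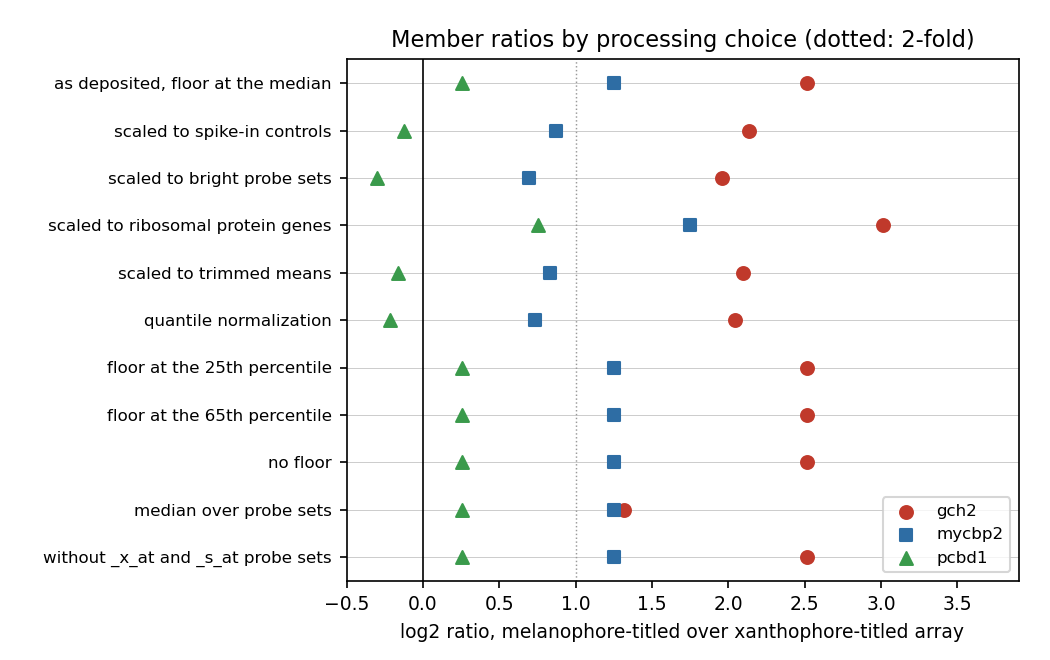
Log2 ratio of the melanophore-titled over the xanthophore-titled array (horizontal) for gch2, mycbp2 and pcbd1 as deposited and under 10 processing alternatives (rows); the dotted line is 2-fold. All gch2 points lie right of 2-fold, between 1.32 and 3.02, mycbp2 lies between 0.70 and 1.75, and pcbd1 lies on both sides of 0.

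Few other genes on lists around the route were measured, and 6 of those 9 were within 2-fold, beside 3796 of all 5504 measured genes. These lists also hold pax7a, slc2a15b, mocs3 and ddc, which encode no enzyme of the route and no user of the cofactor. Of 40 further genes on 6 lists (first step, cofactor synthesis, recycling, pigment branch, cofactor users and molybdenum cofactor), 14 were represented by a named probe set, of which 9 were measured. Of the 9, 1 was 2-fold or more higher on the melanophore-titled array and 0 were 2-fold or more lower, beside 15.5% and 4.09% of all measured genes. The remaining 2, pax7a and mocs3, have lower bounds under 2-fold. The median log2 ratio over the 9 was 0.62, against 0.36 for all measured genes. Among the genes with no named probe set in the annotation used here, and so not analysed, were the other cyclohydrolase gene gch1, the synthase gene pts, the sepiapterin reductase genes spra and sprb, and xdh, which encodes xanthine dehydrogenase.

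In the synthesis steps the carbonyl and aldose reductases, which can reduce the pterin side chain in place of sepiapterin reductase in mammals, were within 2-fold. The aldose reductase family gene akr1b1.2 read 583.1 on the melanophore-titled array, against 378.3 on the xanthophore-titled array (1.54-fold higher), and cbr1l read 284.1 and 364.3 on the same arrays (1.28-fold lower). In recycling, the dihydropteridine reductase gene qdprb.1, whose enzyme follows that of pcbd1, read 89.7 on the melanophore-titled array, against 55.0 on the xanthophore-titled array, 1.63-fold higher. Its other probe set read 58.6 and 18.1 on the same arrays, at least 1.35-fold higher. The second is a lower bound, so of the recycling genes pcbd1 and the first qdprb.1 probe set were within 2-fold as deposited. The paralogue qdpra was under both medians, at 27.4 on the melanophore-titled array against 27.1 on the xanthophore-titled array. The probe sets of qdprb.4, a gene added after its values were seen, read 7.2 or less on both arrays.

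In the pigment branch, the sugar transporter family gene slc2a15b, which medaka needs for leucophores and yellow xanthophore pigment, was bright on both arrays at 3444.2 on the melanophore-titled array against 4348.7 on the xanthophore-titled array, and its dimmer probe set read 79.6 and 133.2 on the same arrays. The paired-box gene pax7a, a regulator of the xanthophore lineage, read 86.7 on the melanophore-titled array, against 23.4 on the xanthophore-titled array, at least 1.99-fold higher. Its 4 probe sets did not run one way, since the signals of the other three were 82.3, 32.7 and 23.8 on the melanophore-titled array against 18.4, 44.0 and 33.6 on the xanthophore-titled array. The Mocs3 enzyme works on the molybdenum cofactor that xanthine dehydrogenase needs, and mocs3 read 78.8 on the melanophore-titled array against 34.2 on the xanthophore-titled array, at least 1.81-fold higher.

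Of 11 genes listed as cofactor users, 7 were represented and 3 measured, namely agmo, tph2 and ddc. Beside 15.5% of all measured genes, 1 of these 3 was 2-fold or more higher on the melanophore-titled array. This gene was agmo. It encodes alkylglycerol monooxygenase, which cleaves ether lipids, and it read 185.9 on the melanophore-titled array, against 24.3 on the xanthophore-titled array, at least 4.27-fold higher. Its second probe set gave 79.3 and 52.1 on the same arrays, 1.52-fold, so the size is not shared by both probe sets. With signals raised to the 65th percentile of each array, agmo had a bound just under 2-fold, and quantile normalization made its second probe set the brighter one on average, with which agmo was within 2-fold. The tryptophan hydroxylase gene tph2 read 136.7 on the melanophore-titled array, against 175.7 on the xanthophore-titled array, 1.29-fold lower. The decarboxylase gene ddc, which acts on the products of the hydroxylases and does not itself use the cofactor, read 76.0 and 77.3 on the same arrays. Tyrosine hydroxylase (th), tph1a, tph1b and the nitric oxide synthase gene nos1 were under the medians of both arrays.

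Both measured genes listed beside mycbp2 were within 2-fold, as were 3796 of all 5504 measured genes. Of 9 genes listed with mycbp2 as partners, targets or by a shared name, 5 were represented and 2 measured. The ubiquitin ligase subunit gene skp1 read 2563.3 on the melanophore-titled array, against 1504.0 on the xanthophore-titled array, 1.70-fold higher. The gene mycbp, which shares the name and whose product binds the Myc protein, read 115.6 and 84.0 on the same arrays, 1.38-fold higher. The F-box gene fbxo45, whose protein joins the mycbp2 ligase in mammals, was under both medians at 11.7 on the melanophore-titled array against 7.8 on the xanthophore-titled array. For pcbd1, the HNF1 gene with a named probe set, hnf1bb, read 2.7 and 6.3 on the same arrays and was not measured.

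Upstream of gch2, the de novo purine genes atic, ppat and paics had larger log2 ratios (3.91, 3.68 and 3.50) than gch2. Of 19 listed genes of purine and GTP supply, 13 were represented and 11 measured. Of these, 7 were 2-fold or more higher on the melanophore-titled array and 0 were 2-fold or more lower, beside 15.5% and 4.09% of all measured genes. With spike-in controls, bright probe sets, trimmed means or quantiles set equal, 6 were 2-fold or more higher. The shares of all measured genes there were 6.56%, 4.43%, 6.01% and 6.29%, in that order. With ribosomal protein genes set equal, 9 were higher, beside 40.9%. With bright probe sets, trimmed means or quantiles set equal, 1 was 2-fold or more lower. Of all measured genes, 11.6%, 8.81% and 8.01% were lower under these scalings, in that order. As deposited, the median log2 ratio of the 11 measured purine and GTP genes was 1.89, against 0.36 over all measured genes. The ratio of gch2, 2.52, lay inside the range of this list, from -0.60 for impdh2 to 3.91 for atic. Next to gch2 in size was impdh1b, an IMP dehydrogenase on the path to GTP. Its brighter probe set read 1059.8 on the melanophore-titled array, against 201.8 on the xanthophore-titled array, 5.25-fold higher. The other impdh1b probe set read 6.5 and 4.0 on the same arrays, under both medians. The IMP dehydrogenase gene impdh2 ran the other way, at 245.8 and 372.0 on the same arrays, 1.51-fold lower. The guanylate kinase gene guk1a, nearer to GTP, read 203.2 and 105.4 on the same arrays, 1.93-fold higher. The log2 ratios of the other measured genes on this list were 2.05 for gart, 1.89 for adsl, 1.06 for prps1a, 0.83 for prps1b and 0.17 for adssl.

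**Figure D4:**
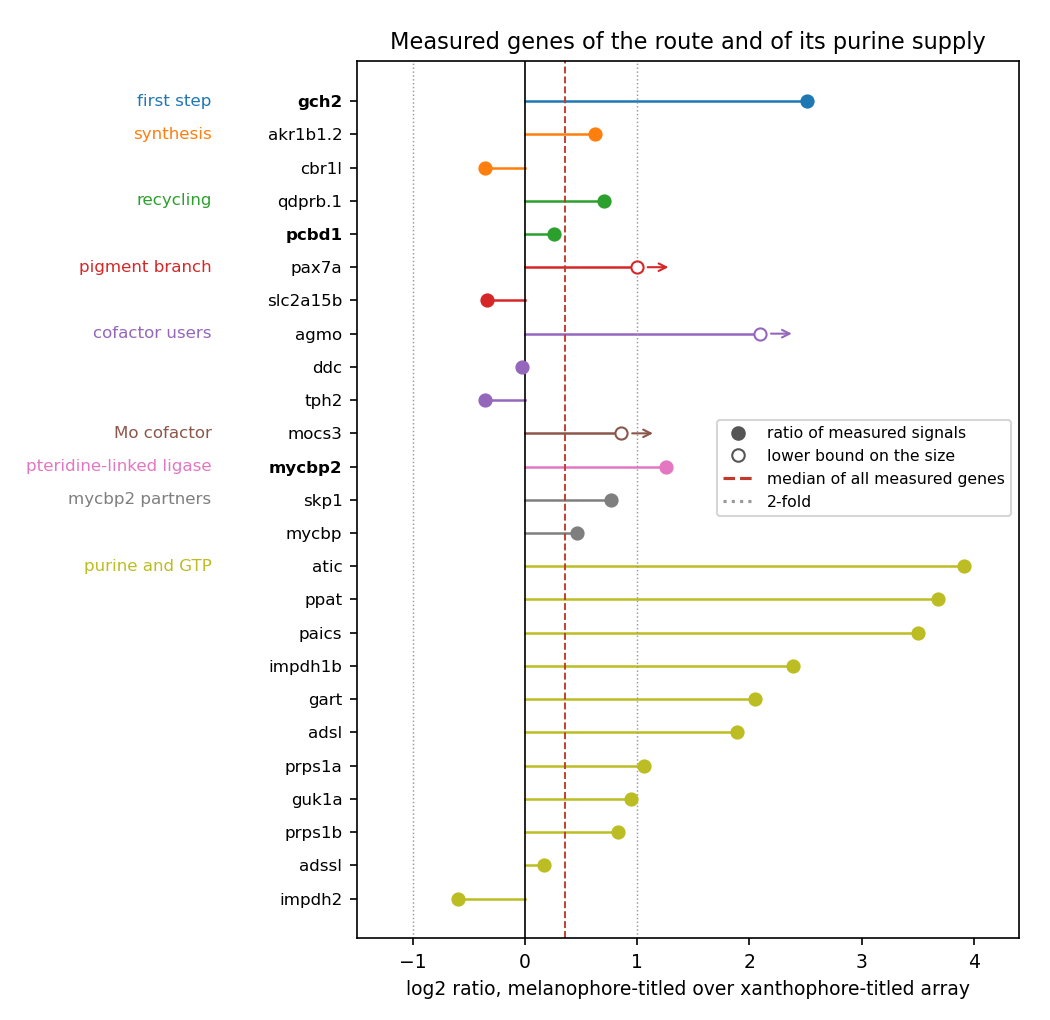
Log2 ratio of the melanophore-titled over the xanthophore-titled array (horizontal) for each measured gene, grouped by role; filled points are ratios of measured signals, open points with arrows are lower bounds, the dashed line is the median of all measured genes (0.36) and dotted lines mark 2-fold. Apart from gch2, mycbp2 and the bound for agmo, the points past 2-fold belong to the purine and GTP group.

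Some markers of cell types differed between the preparations in the same direction as gch2 or against it. Their part in the gch2 and mycbp2 ratios was not tested. Markers are counted as higher or lower on the melanophore-titled array at 2-fold or more. Every such count stands beside 15.5% higher and 4.09% lower among all 5504 measured genes. Summed signals run over every marker of a list with a named probe set, measured or not. In these bulk preparations fewer cells of a type and less RNA per cell cannot be told apart. Of 6 measured xanthophore markers, of 8 listed, 4 (bco1, scarb1, csf1ra and slc2a11b) were higher and 0 lower, with summed signals over the 6 of 10210 on the melanophore-titled array against 4774.5 on the xanthophore-titled array. The other 2 were slc2a15b and pax7a, whose readings are given above. Most of the sum of 4774.5 on the xanthophore-titled array was slc2a15b, at 4348.7, which read 3444.2 on the melanophore-titled array. Of 2 measured melanophore markers, of 11 listed, 0 were higher and 1 lower. The lower one was the melanin enzyme gene dct, at 50.1 on the melanophore-titled array, against 590.1 on the xanthophore-titled array. The other 2 named ones were near or under the medians. Signals of tyr were 48.4 on the melanophore-titled array against 39.2 on the xanthophore-titled array, and those of pmelb 1.9 against 3.2. Of 6 measured pigment lineage regulators, of 10 listed, 1 was higher and 0 lower. No marker named here was listed at 0. Endothelial markers were also higher on the melanophore-titled array (5 of 6 measured, of 14 listed; summed signals of 4033 there and 931 on the xanthophore-titled array). Connective tissue and bone markers were lower there in 9 of 10 measured of 16 listed, the exception being thy1, with summed signals of 11178 on the melanophore-titled array against 22614 on the xanthophore-titled array. Much of the first sum was thy1, at 5787.4 on the melanophore-titled array against 693.3 on the xanthophore-titled array. Of the keratinocyte markers, 11 were measured of 15 listed, 3 higher and 0 lower (25373 on the melanophore-titled array against 21504 on the xanthophore-titled array). Much of these sums was krt8, at 11557.9 and 10946.5 on the same arrays. Some of the others were bright on both arrays, while krt93, cldna and tp63 were under both medians by the probe set used. Of the leukocyte markers 2 of 5 measured of 13 listed were higher and 1 lower. Summed signals over the 9 named ones were 748 on the melanophore-titled array against 555 on the xanthophore-titled array. The 2 measured erythrocyte markers, of 11 listed, were both lower. Summed signals over the 7 named ones were 141 on the melanophore-titled array against 1238 on the xanthophore-titled array. Most of the second sum was hbaa1, at 24.9 on the melanophore-titled array against 956.5 on the xanthophore-titled array. Of 4 measured Schwann cell and neuron markers, of 14 listed, 1 was higher and 0 lower (3751 on the melanophore-titled array against 2772 on the xanthophore-titled array), and of 3 measured iridophore markers, of 9 listed, 1 was higher and 0 lower (1977 and 1206 on the same arrays).

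Genes with the signal pair most like that of each gene were found by the distance between log2 signals over the 2 arrays, which compares 2 readings and carries no more than that. Nearest to gch2 were chp2 (789.4 on the melanophore-titled array against 149.6 on the xanthophore-titled array, log2 distance 0.09), nmt1a (0.19) and cremb (0.22). Nearest to mycbp2 were arpc1a (1076.4 on the melanophore-titled array against 467.2 on the xanthophore-titled array, 0.04), snx16 (0.05) and ppm1g (0.06). Nearest to pcbd1 were cops8 (259.5 on the melanophore-titled array against 217.9 on the xanthophore-titled array, 0.02), atp6v1c1b (0.04) and rmnd5b (0.04). The neighbours of gchfr were ccdc120b, nfatc4 and ttn.2, at signals near or under the medians.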

How the data were processed

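Total RNA from the 2 preparations was labelled with biotin and hybridised to 1 array each, per the labels' protocols. The authors deposited MAS 5.0 signal intensity per probe set on a linear scale. MAS5 is named in the submitters' processing notes, and the scaling target it was run with is not stated there. Samples were grouped by title. Of 15617 probe sets, 115 are controls. Of the 15502 for transcripts, 10795 have 1 gene symbol in the platform annotation (1 updated through the NCBI gene ID), 135 carry more than 1 and were left unnamed, as were 4572 that the annotation does not list. For a gene with more than 1 probe set, that of highest mean log2 signal was used. Signals under an array's median were raised to it. Where the dimmer signal alone was raised, the log2 ratio is a lower bound on the size of the difference, in either direction. Where both were under the medians, no ratio is given with that floor. Near the medians this step can turn the sign of a small ratio, and no such ratio is printed. Medians over lists include the bounds. The deposited intensity values were otherwise used as they stand, and the number of arrays limits their precision. The named genes were the 4 genes with every probe set, measured genes of the route lists, and the 3 nearest genes by log2 signal. The genes, lists and rules were chosen with earlier results of these data known. Genes named from lists but not measured, and the marker genes, were named to complete those lists. The ratio calculation was tested on simulated data. Python 3.11.15, numpy 2.4.6 and pandas 2.3.3 were used. Alternatives covered scaling, floor, fold, and choice of probe set.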

Additional observations from a re-analysis of the deposited data

How the results depend on the processing

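With 1 array per preparation no value can be recomputed without a replicate. No paired analysis was possible because each group holds 1 sample. Scaling to the spike-in controls gave log2 ratios of 2.13 for gch2, 0.87 for mycbp2 and -0.12 for pcbd1. Medians there were 0.24 for the other genes on the 6 route lists and 1.51 for the purine genes. With bright probe sets set equal these ratios and medians were 1.96, 0.70, -0.30, 0.069 and 1.34, in that order. With trimmed means they were 2.09, 0.83, -0.17, 0.20 and 1.47. With quantile normalization they were 2.04, 0.74, -0.22, 0.13 and 1.42. With ribosomal protein genes as the standard they were 3.02, 1.75, 0.76, 1.12 and 2.39. In the first 4 scalings, 1 of the 3 measured genes was 2-fold or more higher. The shares of all measured genes there were 6.56%, 4.43%, 6.01% and 6.29%, in that order. At 4-fold as deposited the count was also 1, beside 2.22%. With bright probe sets, trimmed means or quantile normalization, 1 purine gene was 2-fold or more lower, beside 11.6%, 8.81% and 8.01% of all measured genes. Other genes on the route lists 2-fold or more higher numbered 5 with ribosomal protein genes set equal, beside 40.9% of all measured genes. They numbered 3 with a floor at the 25th percentile or none, beside 17.7%. These 3 were agmo, pax7a and mocs3, and the last 2 encode no enzyme of the route and no user of the cofactor. With quantile normalization or the floor at the 65th percentile they numbered 0, beside 6.29% and 12.5%. That higher floor put the purine median at 1.16. As the median over probe sets, gch2 stood at 1.32 and the purine median at 1.26, because dim probe sets enter at the ratio of the floors. With a floor at the 25th percentile, gchfr was at least 3.26-fold lower and the dimmer gch2 probe set at least 3.07-fold higher on the melanophore-titled array. Both rest on signals under the array medians. Over the 7091 probe sets under both medians, log2 ratios without a floor ran from -2.585 (5th percentile) to 2.25 (95th). Without a floor gchfr stood at -2.21, inside that range, and the dimmer gch2 probe set at 4.415, outside it. Some dim probe sets lie outside such a range by definition, and the 4.415 rests on a reading of 2.1 on the xanthophore-titled array. Neither place in the range therefore decides whether the preparations differ. The share of measured genes 2-fold or more higher on the melanophore-titled array was 6.56% after scaling to the spike-ins and 40.9% with ribosomal protein genes set equal, and the share 2-fold or more lower was 8.21% and 2.31%. The floors and the removal of probe sets ending in _x_at or _s_at could not change the ratio of any of the 3 measured genes. Signals under the array medians limit what can be said of gchfr and of the dimmer gch2 probe set.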
